A study of Mus musculus with 2 samples.

Results

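The mRNAs of the cytosolic ribosomal proteins were compared between liver macrophages of WT mice and of FABP7 KO mice. Members were chosen by gene symbol, as the Rpl, Rplp, Rps and Rpsa genes without rows named as pseudogenes and without the S6 kinases. The rule gave 86 of the 22322 genes in the table. Of these, 77 encode core ribosomal proteins, 46 of the large (60S) and 31 of the small (40S) subunit. The other 9 are paralogs or a retroposed copy (Rps27l, Rpl22l1, Rpl7l1, Rpl36al, Rpl10l, Rpl3l, Rpl39l, Rps27rt) and Rps19bp1, a nucleolar partner of Rps19 that is no ribosomal protein. The rule also misses ribosomal proteins with other symbols, such as Fau and Rack1, which are given separately.

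Both groups were male mice of 6 to 8 weeks with C57BL/6 as the labelled background, the KO line being given as C57BL/6 J in the methods, and the KO mice lacked Fabp7, which encodes a fatty acid binding protein, throughout the body. Every mouse received 500000 MC38 cells, a mouse colon carcinoma line, in 100 µl of PBS into the spleen, so the WT library is also from a liver with metastases. On day 10 macrophages were isolated from the liver with an F4/80 positive selection kit, and poly(A) RNA was sequenced. Each genotype has 1 library and the number of mice in it is not given, so no spread between mice can be estimated and no p-value is given. One label field calls the KO sample a knockdown, and the title and the study's methods a knockout.

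The authors deposited FPKM, that is, fragments set against both gene length and library size, which allows levels to be compared between genes. Fabp7 itself had 354 FPKM in WT and 0.69 in KO. The 10 macrophage and Kupffer cell markers were all measured and summed to 12988 FPKM in WT and 15389 in KO, so the labelled cell type was present in both. Of these markers 8 were higher in KO and 2 lower, Marco at 1377 and 714 FPKM and Cd163 at 216 and 123. Depth was estimated at 18100000 fragments for WT and 17900000 for KO. Markers of other cells moved between the libraries as well. The 10 proliferation genes (Mki67, Top2a, Pcna and others) summed to 548 FPKM in WT and 150 in KO, each lower by over 2-fold. Hepatocyte markers summed to 239 and 474 FPKM, with 7 of 7 higher in KO. Marker sums of sinusoidal endothelial cells were 105 and 202 FPKM, of stellate cells 16.9 and 46.9, of neutrophils 8.74 and 43.5, of B and plasma cells 13.0 and 31.0, and of T cells 3.79 and 5.69. In the same order 5 of 5, 3 of 5, 3 of 6, 4 of 5 and 2 of 5 markers reached 1 FPKM in either library, all higher in KO. Below 1 FPKM, Col1a1, Ly6g (0.18 and 0.12 FPKM) and Cd3e (0.49 and 0.34) were lower in KO and the others higher. Epithelial markers, listed for tumour cells, summed to 6.62 and 5.82 FPKM, with Epcam at 0 in WT and 0.13 in KO. Whether MC38 cells express these markers was not tested, so their sum does not measure tumour cell content. Elane, a neutrophil granule gene, was at 0 and 0.06 FPKM. In these bulk libraries, fewer cells of one type and less RNA per cell cannot be told apart, and the part of these cells in the results below was not tested.

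As background, a ribosome carries 1 copy of nearly every ribosomal protein, and the proteins are made in step with each other and with ribosomal RNA. Their mRNAs are short and abundant, and most begin with a C followed by a run of pyrimidines, the 5′ terminal oligopyrimidine (TOP) motif. Through this motif their translation answers to mTORC1, the kinase complex that couples growth to nutrients. The genes have many processed pseudogenes in mammalian genomes, and these can take or give sequencing fragments.

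Ribosomal protein mRNAs were lower in the KO library nearly throughout. The 86 members summed to 26353 FPKM in WT and 19198 in KO, so the KO sum was 72.8% of the WT sum. Their share of all FPKM was 5.69% in WT and 4.28% in KO, or 6.19% and 4.66% with the mitochondrially encoded genes left out. For single genes the difference is given as log2((KO FPKM + 1)/(WT FPKM + 1)), called the log2 ratio, for the 10770 genes that reached 1 FPKM in either library. Of the 86 members 83 reached this level. Their median log2 ratio was -0.46, with quartiles of -0.54 and -0.36, while all measured genes had a median of 0.0036 with quartiles of -0.24 and 0.24.

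The shift was moderate in size and narrow in spread. KO was below WT for 81 of the 83 members, against 49.5% of all measured genes. A gene is counted as lower where KO was at most 80% of WT (FPKM + 1), a log2 ratio of -0.32 or less, and as higher where KO was at least 25% above WT. By this rule 71 members (85.5%) were lower and 0 were higher, where 19.1% of all measured genes were lower and 18.6% higher. No member passed 2-fold in either direction, where 2.95% of all measured genes were lower and 2.21% higher. The SD of the log2 ratio across members was 0.15, against 0.50 across all measured genes. Abundant genes as a class were lower somewhat more often, since 29.5% of the 718 genes with a mean of at least 100 FPKM were lower, and 22.8% of the 644 that remain without the members. These 644 had a median log2 ratio of -0.07.

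**Figure D1:**
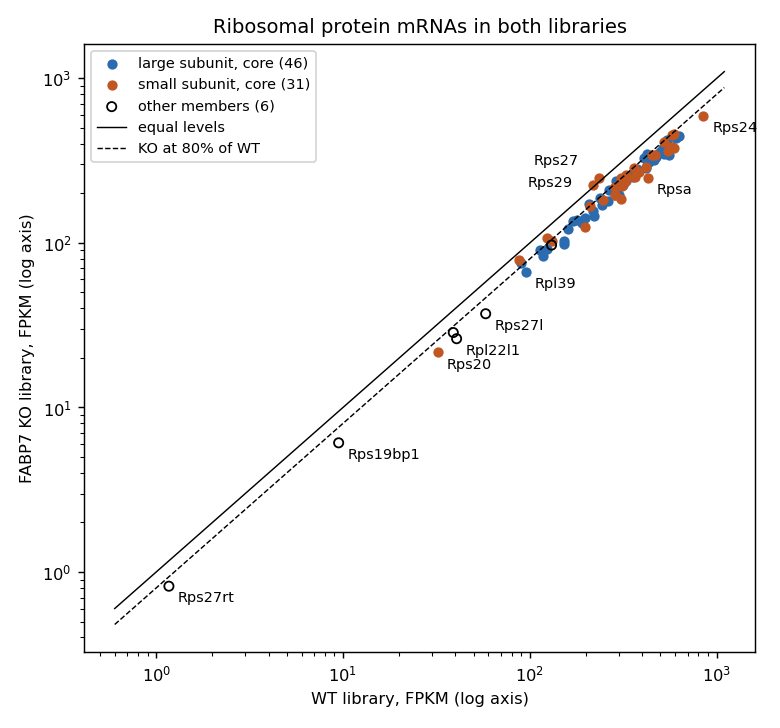
FPKM of each measured member in the WT library (x, log axis) and the KO library (y, log axis), 1 point per gene, with 46 large subunit, 31 small subunit and 6 other members. The solid line marks equal levels and the dashed line a KO level at 80% of WT, and all points but Rps27 and Rps29 sit under the solid line.

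Levels among the core genes spanned 26.4-fold in WT and 27.3-fold in KO, or 9.74-fold and 8.89-fold without Rps20, the lowest of them, which was left out after the values were seen. The order of the genes was nearly the same in both libraries, with a Pearson r of 0.98 across 77 genes on the log2 FPKM scale, which describes 2 libraries and not replicates. The median core gene stood at 315 FPKM in WT and 248 in KO. At 300 FPKM or more there were 43 members in WT and 25 in KO. Among the 100 highest genes of each library, 10 were members in WT and 1, Rps24, in KO.

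By the mean of both libraries Rps24, a small subunit protein, was the highest, at 848 FPKM in WT and 592 in KO. Rpl19 followed at 627 and 450 FPKM, Rps14 at 594 and 457, Rpl10 at 609 and 437, and Rps9 at 578 and 451. The gaps among these last 4 are small and their order differs between the libraries. The lowest core gene was Rps20, at 32.2 and 21.6 FPKM. Its longest GENCODE transcript has 3706 bases and its coding sequence 357, and Rps24, the highest gene, has 4059 and 399. The gene model the authors used is not given, and its part in these levels was not tested. Above Rps20 stood Rpl39 at 94.9 and 66.5 FPKM, Rpl36 at 90.1 and 75.7, Rps28 at 87.1 and 78.9, and Rpl37 at 118 and 83.1.

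The mRNAs of both subunits were lower by nearly the same amount. The 46 large subunit genes summed to 15015 FPKM in WT and 10904 in KO, which is 72.6% of the WT sum. The 31 small subunit genes summed to 11058 and 8097 FPKM, which is 73.2%. The large-to-small ratio of these sums was 1.36 in WT and 1.35 in KO. The median log2 ratio was -0.47 for the large and -0.43 for the small subunit genes. What differed was the width. Large subunit genes ran from -0.71 to -0.25, with an SD of 0.10 and 46 of 46 below 0, and small subunit genes from -0.78 to 0.09, with an SD of 0.19 and 29 of 31 below 0. Much of this width lay in a few short genes. The 27 small subunit genes with over 300 coding bases had an SD of 0.13, and the 41 large subunit genes of that length 0.10.

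**Figure D2:**
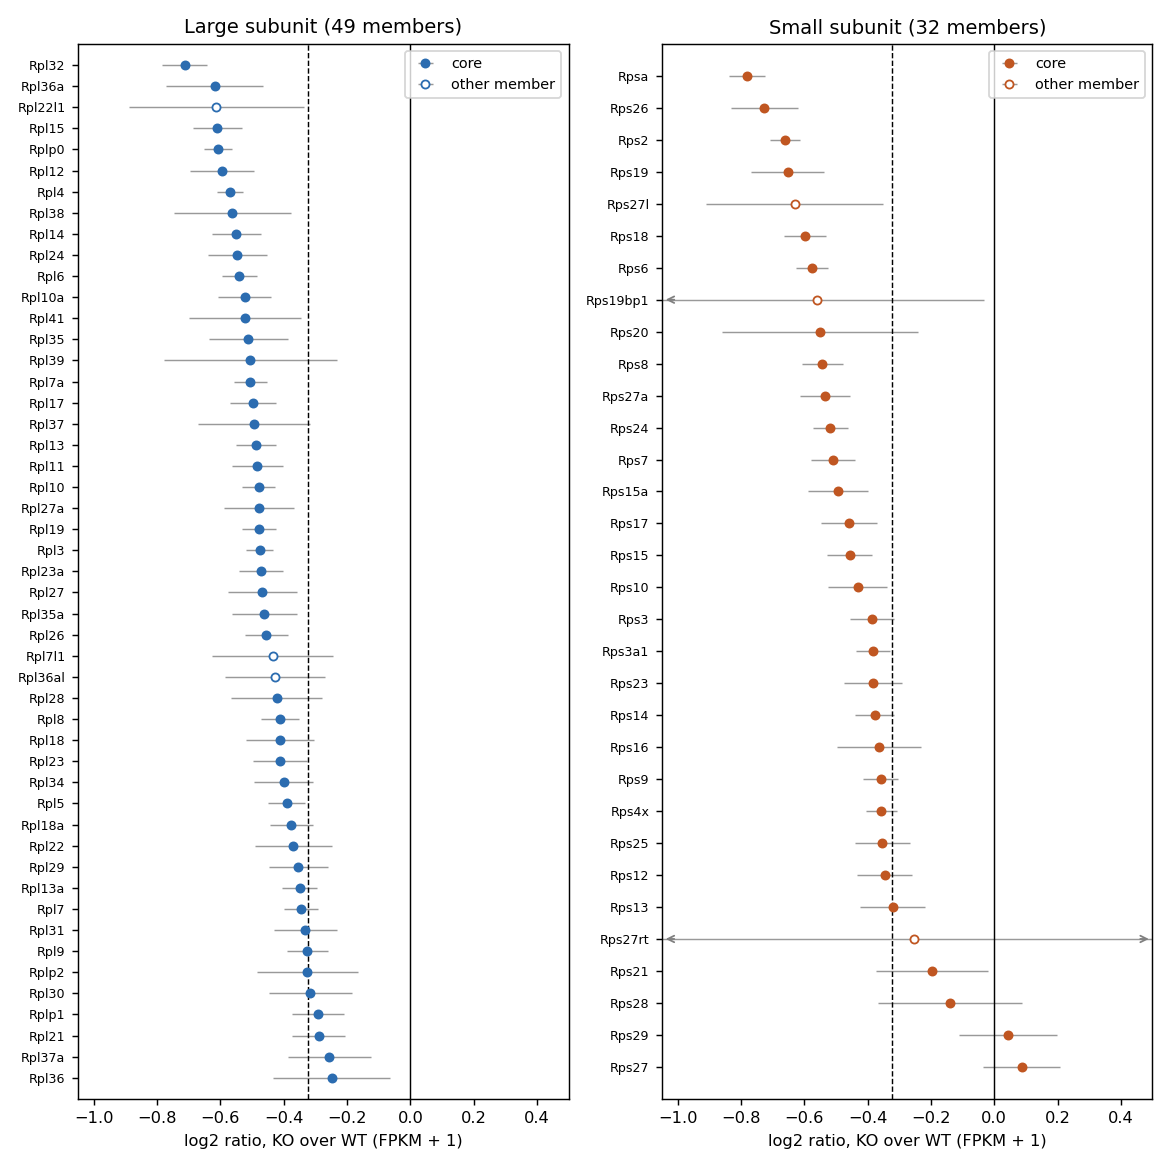
log2 ratio of KO over WT for 49 large and 32 small subunit members, sorted by ratio, with 95% counting intervals as bars (arrows where a bar runs past the axis) and open circles for members that are not core proteins. The dashed line is the 80% rule and the solid line is 0, and Rps29 and Rps27 stand alone to the right of 0.

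Both ends of the range belonged to the small subunit. Rpsa, which sits at the mRNA exit site and is also known as the laminin receptor, stood at 429 FPKM in WT and 249 in KO, a log2 ratio of -0.78. Rps26, its neighbour at the mRNA exit, stood at 307 and 185 FPKM (-0.73). Rps2, at the mRNA entry, stood at 594 and 375 FPKM (-0.66). Rps19, the gene most often mutated in Diamond-Blackfan anemia, a failure of red cell production, followed at 198 and 126 FPKM (-0.65). In the large subunit the lowest ratio was that of Rpl32, at 559 and 341 FPKM (-0.71). Rpl36a stood at 152 and 98.6 FPKM (-0.62), Rpl15 at 299 and 195 (-0.61), and Rplp0, the base of the stalk that recruits elongation factors, at 580 and 381 (-0.61).

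At the other end, Rps27 stood at 234 FPKM in WT and 248 in KO (log2 ratio 0.09) and Rps29 at 218 and 224 FPKM (0.04). Both encode small zinc-binding proteins of the 40S subunit. Rps28, also at the mRNA exit, stood at 87.1 and 78.9 FPKM (-0.14), and Rps21 at 123 and 107 FPKM (-0.20). Then came 4 large subunit genes, Rpl36 at 90.1 and 75.7 FPKM (-0.25), Rpl37a at 207 and 173 (-0.26), Rpl21 at 291 and 238 (-0.29), and Rplp1, a stalk protein, at 423 and 345 (-0.29). Rpl30 at 170 and 137 FPKM (-0.32) lay just short of the 80% rule, as did Rps13 (211 and 169 FPKM), and Rplp2 (114 and 90.5) and Rpl9 (409 and 326), both at -0.33, just past it.

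The counting error of these ratios was small against the shift. Fragments were reckoned from FPKM, coding length and the estimated depth, which gives a low estimate of fragments and so a wide interval. The lowest core gene had 208 fragments in WT and 138 in KO, and the standard error of the log2 ratio had a median of 0.042 and a highest value of 0.16 among core genes. The 95% counting interval lay below 0 for 79 of 83 members and held 0 for 4, which were Rps27 (-0.03 to 0.21), Rps29 (-0.11 to 0.20), Rps28 (-0.37 to 0.09) and Rps27rt. For Rpsa it ran from -0.84 to -0.73. The 80% threshold lay within the interval of 35 members, so the count of 71 depends on ratios that counting alone could move across it. These intervals cover counting error only and say nothing of differences between mice.

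Among the functional sites of the ribosome, group medians ran from -0.39 at the mRNA entry and decoding centre to -0.55 at the mRNA exit. The groups are small, and their counts of lower genes stand beside 85.5% of all members and 19.1% of all measured genes. At the peptidyl transferase centre and the wall of the exit tunnel (Rpl3, Rpl4, Rpl8, Rpl10, Rpl27, Rpl29), 6 of 6 genes were lower by the 80% rule, with a median of -0.47. Rpl4 was the lowest of them, at 520 and 350 FPKM (-0.57), and Rpl29 the least shifted, at 238 and 186 (-0.35). Around the tunnel exit (Rpl17, Rpl19, Rpl23a, Rpl26, Rpl31, Rpl35, Rpl39), 7 of 7 were lower, with a median of -0.48 and a range from -0.51 to -0.33. For the P stalk and its base the median was -0.46, but the mRNAs of the base proteins were lower by more than those of the stalk proteins. Rplp0 and Rpl12 of the base had log2 ratios of -0.61 and -0.60, and Rplp1 and Rplp2 of the stalk -0.29 and -0.33. Rpl5 and Rpl11, which carry 5S RNA and can bind Mdm2 outside the ribosome, stood at 335 and 255 FPKM (-0.39) and at 315 and 225 FPKM (-0.48).

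In the small subunit, 5 of 5 genes at the mRNA entry and decoding centre (Rps2, Rps3, Rps9, Rps15, Rps23) were lower, with a median of -0.39. The mRNA exit held the widest range, from Rpsa and Rps26 at -0.78 and -0.73, through Rps14 at -0.38 (594 and 457 FPKM), to Rps28 at -0.14. The 3 genes of the beak (Rps10, Rps12, Rps27a) were lower, with a median of -0.43. Rps27a, made as a fusion with ubiquitin, stood at 365 and 251 FPKM (-0.53). Rps6, the classical substrate of the S6 kinases, stood at 568 and 381 FPKM (-0.58). Of 12 listed genes mutated in Diamond-Blackfan anemia 10 were lower (83.3%), near the 85.5% of all members, with a median of -0.46. The exceptions on this list were Rps28 and Rps29.

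Rack1 and Fau, which the symbol rule misses, also stood lower in KO. Rack1, a scaffold for signalling proteins on the 40S head, stood at 453 FPKM in WT and 336 in KO (-0.43). Fau, whose product is split into a ubiquitin-like protein and a small subunit protein, stood at 308 and 258 FPKM (-0.26).

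The paralogs followed the core genes with one contrast. Rps27l, a p53 target whose coding sequence matches that of Rps27 at 76.2% of aligned positions, stood at 58.1 FPKM in WT and 37.1 in KO (-0.63), while Rps27 had a log2 ratio of 0.09. Rps27l thus made up 19.9% of the FPKM of the pair in WT and 13.0% in KO. Rpl22l1, the paralog of Rpl22, stood at 40.6 and 26.2 FPKM (-0.61) and was 18.5% and 16.0% of its pair. Rpl36al stood at 131 and 97.1 FPKM (-0.43), close to the level of Rpl36a, and was 46.3% and 49.6% of the pair, whose coding sequences match at 87.7% of positions. Rpl7l1 stood at 39.0 and 28.5 FPKM (-0.44), or 8.41% and 7.88% of its pair with Rpl7.

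Paralogs known from other tissues were at or near 0. Rpl3l, known from striated muscle, and Rpl10l, known from testis, were at 0 FPKM in both libraries, and Rpl39l stood at 0.69 and 0.90 FPKM against 94.9 and 66.5 for Rpl39. These 3 are the members below 1 FPKM. Rps27rt, a retroposed copy with the coding sequence of Rps27 unchanged, stood at 1.17 and 0.82 FPKM. Rps19bp1 stood at 9.48 and 6.10 FPKM (-0.56, counting interval -1.09 to -0.03).

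Near-identical copies were counted for each core gene, as other genes with a transcript that matches at least 90% of the coding sequence at 95% identity or more. Of the 77 core genes 74 had at least 1 such copy, with a median of 6 and up to 56 for Rpl21. Of the 573 pairs of a gene and a copy, 547 were with annotated pseudogenes. How the authors treated fragments that fit several genes is not given, so levels of these genes are uncertain to that extent. The log2 ratio did not follow the number of copies, with a Pearson r of -0.05 and a Spearman rho of -0.04 across the 77 genes. Genes with 0 to 3 copies had a median of -0.41 (25 genes), those with 4 to 8 copies -0.48 (33 genes) and those with more -0.48 (19 genes). Rpl8 (373 and 280 FPKM, -0.41) and Rps3 (286 and 218 FPKM, -0.39) had no copy, and both were lower.

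A pair of copies was itself at a high level in the table. Rpl10-ps3, whose coding match with Rpl10 is complete, stood at 380 FPKM in WT and 338 in KO (-0.17), where Rpl10 stood at 609 and 437 FPKM (-0.48). Reads of the 2 cannot be told apart within the coding sequence, and their sum was 989 and 774 FPKM (-0.35). BC004004, which matches Rpl21 at 98.5%, stood at 79.6 and 58.0 FPKM (-0.45), and its sum with Rpl21 was 371 and 296 FPKM (-0.32).

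Among the 77 core genes, the shortest small subunit genes were the least shifted, in a split by length and subunit that was chosen after the values were seen. The 4 core small subunit genes with a coding sequence of up to 300 bases had the 4 highest ratios of the core genes, Rps27 (252 bases), Rps29 (168), Rps28 (207) and Rps21 (249), with a median of -0.05. The counting intervals of Rps28 (-0.37 to 0.09) and Rps21 (-0.37 to -0.02) also held the ratios of Rpl36 (315 bases, -0.25) and Rpl37a (-0.26). The other 27 core small subunit genes had a median of -0.46 and ran from -0.78 to -0.32. The paralog Rps27l, with 252 bases as Rps27, did not share this, at -0.63, and the retroposed copy Rps27rt of the same length had -0.25 at about 1 FPKM. Nor did most large subunit genes of the same size. Of the 5 with up to 300 bases, only Rpl37a (276 bases, -0.26) was short of the 80% rule, and the other 4 were Rpl41 at 460 and 320 FPKM (75 bases, -0.52), Rpl39 (153 bases, -0.51), Rpl38 at 153 and 103 FPKM (210 bases, -0.56) and Rpl37 (291 bases, -0.50).

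Over all 77 core genes, the log2 ratio against log2 coding length had a Pearson r of -0.33 and a Spearman rho of -0.29. With the log2 length of the longest transcript these were weaker, at -0.22 and -0.14. Genes over 300 and up to 600 bases had a median of -0.44, with 40 of 46 lower, and genes over 600 bases a median of -0.51, with 22 of 22 lower. Against log2 WT FPKM r was -0.24, and against GC content of the coding sequence 0.07. The genes share both libraries, and coding length and WT level are themselves related (r = 0.49), so these values describe the members and carry no p-value.

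**Figure D3:**
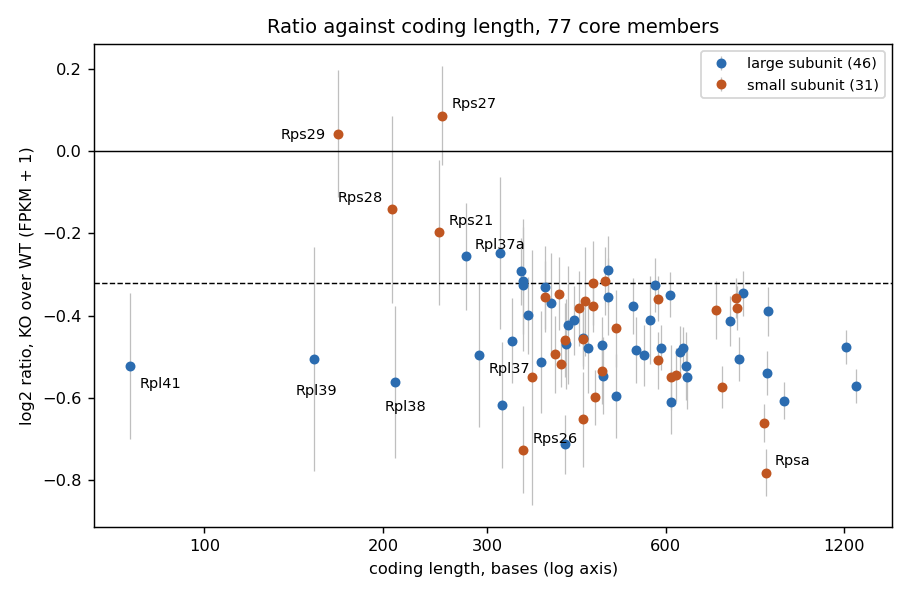
log2 ratio of KO over WT (y) against coding length in bases (x, log axis) for the 77 core genes, coloured by subunit, with 95% counting intervals as bars. Rps29, Rps28, Rps21 and Rps27 have the highest ratios. Rpl41, Rpl39 and Rpl38, which are as short, lie at -0.52, -0.51 and -0.56, and Rpl37a (276 bases) lies at -0.26.

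The start of the gene shows what these mRNAs share in sequence. RefSeq windows of 250 bases before to 50 bases after the annotated start (GRCm38.p6) were at hand for 57 of the 77 core genes. Of these, 8 genes have windows at several annotated starts, and a gene counts where any of its windows holds the motif. A C at the annotated start followed by at least 4 pyrimidines, read on the coding strand, was found in 13 of the 57 (22.8%), against 3.01% of 27025 genes with a window. The 3 lowest and the 3 highest log2 ratios among these 13 are given as the 15 bases before and the 15 bases from the start, with the pyrimidine run at the start in capitals. The first 15 bases are promoter and the last 15 the start of the first exon, in the 5′ UTR.
Rpl15, log2 ratio -0.61, chr14:18270972-18271001, minus strand: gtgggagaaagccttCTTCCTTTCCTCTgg
Rps18, log2 ratio -0.60, chr17:33955651-33955680, minus strand: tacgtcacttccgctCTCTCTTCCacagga
Rps6, log2 ratio -0.58, chr4:86857353-86857382, minus strand: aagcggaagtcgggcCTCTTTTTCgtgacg
Rplp2, log2 ratio -0.33, chr7:141447636-141447665, plus strand: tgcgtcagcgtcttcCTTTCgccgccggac
Rps21, log2 ratio -0.20, chr2:180257364-180257393, plus strand: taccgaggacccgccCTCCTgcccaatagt
Rps27, log2 ratio 0.09, chr3:90213634-90213663, minus strand: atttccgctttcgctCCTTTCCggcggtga

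Genes with low ratios such as Rpl15 and Rps27, at the high end, thus begin with a run of this kind alike. The run is 13 bases long in Rpl15, 9 in Rps18 and Rps6, 7 in Rps27 and 5 in Rplp2 and Rps21. The 13 genes with the motif at the annotated start had a median log2 ratio of -0.49, and the other 44 genes with a window -0.47. Annotated starts are often some bases off the start used in a cell, so the share is a count of letters at this position. At the first bases of 1 chosen GENCODE transcript per gene the motif was found in 8 of 77 core genes (10.4%) and in 2.24% of 22225 genes.

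Other letters in the windows were also more frequent than over all genes. CTTTCC lay within 50 bases of the start on the coding strand in 18 of 57 (31.6%, against 5.43%), in 15 of 34 large and 3 of 23 small subunit genes. CCGGAAG, the core letters bound by ETS factors such as GABP, was found on either strand in 24 (42.1%, against 9.93%), AAGATGG, the YY1 core, in 9 (15.8%, against 7.28%), and GGGCGG, the SP1 box, in 35 (61.4%, against 38.2%). CTTTCC can lie within the pyrimidine run at the start, and the motifs are matches of letters only.

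Genes of the same pathway were counted from lists written with earlier results of these data known. Each is read beside the 19.1% of all measured genes that were lower. The lists differ in level, and 22.8% of non-member genes with a mean of at least 100 FPKM were lower. The 23 other mRNAs known to start with a TOP motif (elongation factors, Tpt1, Hnrnpa1, Vim and others) were nearest to the ribosomal proteins, with a median of -0.45 and 17 of 23 lower. Eef1a1, which brings aminoacyl-tRNA to the ribosome, stood at 3812 and 2961 FPKM (-0.36), and Tpt1, a growth-related protein, at 757 and 680 FPKM (-0.15). The lowest were Vim, an intermediate filament protein, at 230 and 72.7 FPKM (-1.65), and Hnrnpa1, an RNA-binding protein, at 286 and 146 FPKM (-0.97). Eif4a2, a helicase of initiation, was the highest at 136 and 152 FPKM (0.17).

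Factors of translation lay between the ribosomal proteins and the median gene. The lists overlap, since Eef1a1, Eef1b2, Eef1d, Eef1g, Eef2 and several initiation factors, such as Eif3e and Eif4a2, are also on the TOP list. Among the lower elongation and termination factors, only Eif5a is not on the TOP list. Of 11 elongation and termination factors 5 were lower, with a median of -0.32, among them Eef1g at 186 and 120 FPKM (-0.63) and Eif5a at 292 and 206 FPKM (-0.50), while Eef2 stood at 599 and 480 FPKM (-0.32) and Gspt1, a release factor, at 45.0 and 43.6 FPKM (-0.05). Of 36 initiation factors 15 were lower, with a median of -0.30. Eif4e, the cap-binding protein, stood at 56.7 and 38.4 FPKM (-0.55), Eif4a1 at 438 and 363 FPKM (-0.27), and Eif4g3, a scaffold, at 40.2 and 53.9 FPKM (0.42).

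The machinery that builds ribosomes shifted less. Of 56 assembly factors 22 were lower and 1 higher, with a median of -0.21. Wdr12, needed to process large subunit RNA, stood at 16.8 and 8.65 FPKM (-0.88), Nop56, of the box C/D particles that guide methylation of ribosomal RNA, at 51.7 and 28.2 FPKM (-0.85), and Ncl, nucleolin, at 56.8 and 38.6 FPKM (-0.55). Sbds, which frees new large subunits for use, stood at 19.2 and 28.9 FPKM (0.57). For RNA polymerase I, which makes the ribosomal RNA, and its factors, 2 of 15 measured genes were lower and 2 higher, with a median of -0.02 that moved to 0.02 when KO was scaled up by summed FPKM. Its largest subunit Polr1a stood at 20.2 and 15.3 FPKM (-0.38), and Ubtf, the factor that opens the ribosomal RNA genes, at 32.2 and 36.2 FPKM (0.16).

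For reference, the mRNAs of other housekeeping complexes were lower too. Of 78 mitochondrial ribosomal proteins 40 were lower, with a median of -0.33 and a range from -0.86 to 0.33. Mrpl42 stood at 92.6 and 67.1 FPKM (-0.46) and Mrpl3 at 53.7 and 52.3 FPKM (-0.04). Of 48 measured proteasome genes 30 were lower, with a median of -0.41. Psma6, of the proteasome core, stood at 223 and 168 FPKM (-0.41) and Psme2, of the interferon-inducible cap, at 179 and 113 FPKM (-0.66). A shift below 0 was therefore shared by these lists, apart from RNA polymerase I and its factors (median -0.02, 13.3% lower). The ribosomal protein genes had the largest share of lower genes among these pathway lists, 85.5%. The other TOP mRNAs had 73.9% and the proteasome 62.5%. The differences between lists were not tested.

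**Figure D4:**
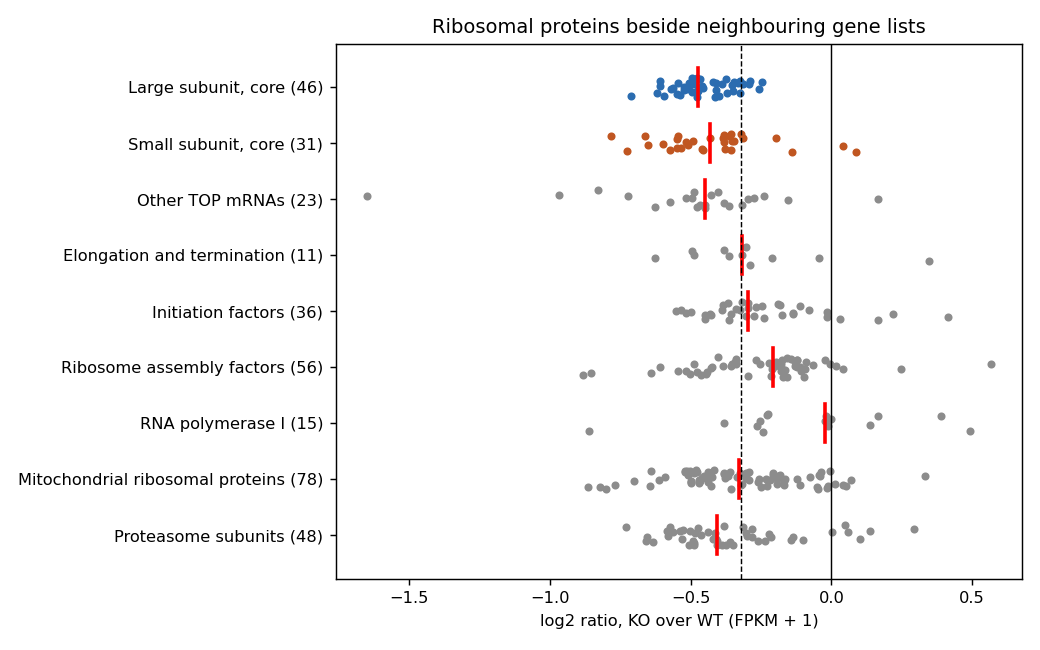
log2 ratio of KO over WT (x) for the measured genes of each list, 1 point per gene with vertical scatter for display, red bars at the medians, the dashed line at the 80% rule and the solid line at 0. The medians run from -0.47 for the large subunit to -0.02 for RNA polymerase I (0.02 when KO is scaled up by summed FPKM), and the ribosomal proteins form the narrowest bands.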

How the data were processed

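RNA-seq of liver macrophages from 1 WT and 1 FABP7 KO library was analysed. The authors deposited FPKM values with 2 decimals. Bowtie2 2.2.8 and TopHat2 2.1.1 appear in the submitters' processing notes without their roles. Genome build, annotation, counting tool and filters were not given in the sources used here. Symbols were taken from GENCODE by Ensembl ID (22267 of 22322 matched). Log2 ratios were computed with a pseudocount of 1 over genes with at least 1 FPKM in 1 library, which understates differences of low genes. No test was made, since each genotype has 1 library.

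Depth came from the spacing of low FPKM values times the longest GENCODE transcript, where 81.4% of 167 values (WT) and 82.8% of 169 values (KO) lay within 0.15 of a whole fragment and 30% would by tolerance alone. The depth was chosen to bring these same values nearest to whole numbers, so the shares do not test it. The steps were checked on simulated libraries built with the same transcript lengths, which cannot test the authors' unknown gene model. Copies were found with BLAST 2.17.0. Alternatives were other scalings, pseudocount, floor, size rule and membership. Genes named were the members with the 10 lowest and 10 highest ratios, the 5 highest and lowest levels, non-core members, site lists and, in each other list, genes chosen from the extremes of ratio and level. Single values of a few members are left unreported, and the genes stay in counts and medians. Members and lists were chosen with earlier results of these data known. Scripts ran in Python 3.11.15 with pandas 2.3.3, NumPy 2.4.6 and Matplotlib 3.10.9.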

Additional observations from a re-analysis of the deposited data

How the results depend on the processing

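With 1 library per genotype no replicate could be left out. No paired analysis was possible because each genotype has 1 library and no result comes from a test. The median log2 ratio of the members lay between -0.47 and -0.41 under every alternative run. Scaling KO up by summed FPKM (1.032), by the median gene (1.026) or by the sum without ribosomal and mitochondrially encoded genes (1.018) brought 11, 10 and 5 members short of the 80% rule, all of them within 0.05 of it on the log2 scale, and turned no member's sign among those named. A 1.5-fold rule left 12 members lower (7.37% of all genes). A pseudocount of 0.1 put Rps13 and Rps27rt past the rule. Restricted to core genes with no copy, 3 were lower and 3 below 0 (share of FPKM 0.204% in WT, 0.155% in KO), and with 3 copies or fewer, an alternative chosen after seeing the data, 22 and 25 (1.68% and 1.29%), both by construction from fewer genes. The difference of subunit medians (large minus small, -0.03) was -0.014 with a pseudocount of 0.1, -0.015 with a floor of 5 FPKM, -0.043 for core genes, and reversed to 0.055 for the 3 genes without copies. It is too small to rank the subunits.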
